A study of Mus musculus with 4 samples.

Results

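The epidermal differentiation complex is a run of gene families on mouse chromosome 3, many of whose products build the cornified envelope. That envelope is the cross-linked protein shell of the outermost skin cells. The members taken here were the protein-coding genes between 90.0 and 94.5 Mb (mm10) whose symbols start with Sprr, Lce or S100a, plus Flg, Flg2, Hrnr, Rptn, Tchh, Tchhl1, Crnn, Ivl and Lor. They were 59 of the 21631 protein-coding genes of the table used, picked by a rule of position and name that takes no binding value. That rule was chosen with earlier results of these data known. There were 21 Lce, 15 S100a and 14 Sprr genes, 7 genes of the fused-type S100 proteins, and Ivl and Lor. A peak was counted as a member's when its summit, the highest point of the peak, lay inside the gene span, or within 100 kb of it with no other protein-coding gene nearer.

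YAP is a co-activator that reaches DNA mainly through TEAD factors, often beside AP-1 sites. In basal keratinocytes it promotes proliferation. Many complex genes, though not all, are switched on as keratinocytes leave the basal layer. SPRR, LCE, involucrin and loricrin are precursors that transglutaminases cross-link into the envelope. Filaggrin and its fused-type relatives carry an S100 domain at one end and long repeats, and several of them bind or embed keratin filaments. S100A proteins are small calcium-binding proteins, some of which act as alarm signals in inflamed skin.

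YAP was mapped by ChIP-seq in epidermal cell suspensions from the skin of adult mice aged 18 to 25 weeks, killed at ZT4, 4 hours after lights on. The WT library carried the genotype label Bmal1 WT. The KO library carried Bmal1 KO, written Bmal1cKO elsewhere in the labels; the sources used here do not say in which cells, or by what driver, the clock gene was deleted. Each genotype had 1 list of peaks whose names say pooled, with 36576 peaks in WT and 14879 in KO. No replicate spread can therefore be given, and no test was run. With 1 pool of whole epidermis per genotype, fewer cells of a type and less binding per cell cannot be told apart. Neither can be told apart from a difference in ChIP yield or library quality between the pools.

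Summit reads below are whole read numbers recovered from the deposited fold and −log10 p. Both pools had an even-spread background of 9.63 reads in these units. WT peaks that shared 1 bp or more with a KO peak are called kept, and all others WT-only. YAP peaks are no measure of transcripts, but linked WT peaks were found for 6 of 6 basal and 4 of 4 differentiated keratinocyte markers, 1 of 6 fibroblast, 1 of 4 endothelial, 2 of 3 T cell and 3 of 4 melanocyte markers. Over all protein-coding genes the share with a linked WT peak was 52.5%.

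YAP peaks were spread unevenly over the complex: 26 of the 59 members had a linked WT peak, against 52.5% of all genes, and 20 had a linked KO peak, against 29.8%. Among the highest-scoring WT peaks, as many as KO has, 22 of the 59 members had a linked peak, against 30.7% of all genes. There the members' share was above that of all genes, while in the full WT list it was below. The members had 86 WT and 49 KO peaks. All 7 fused-type genes and both Ivl and Lor had WT peaks, as did 9 of 15 S100a genes. Only 4 of 14 Sprr genes (Sprr1a, Sprr1b, Sprr3, Sprr4) and 4 of 21 Lce genes (Lce6a, Lce1b, Lce1l, Lce1m) had one. Members are short, with a median span of 1851 bp against 17329 bp over all genes, and lie close together, so the count of linked genes is not on an equal footing with that of all genes.

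**Figure D1:**
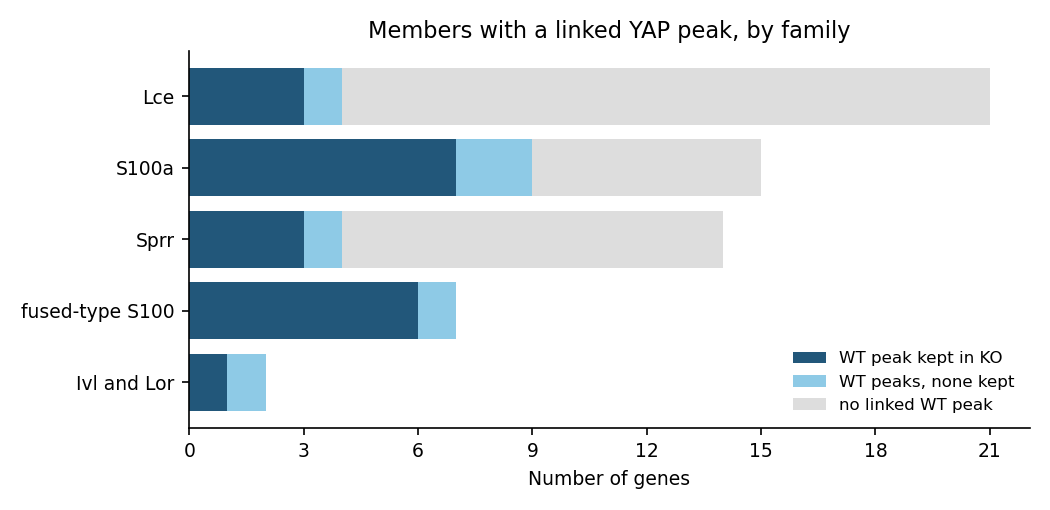
Members of each gene family (bars, number of genes) split into those with a linked WT peak kept in KO, those with WT peaks none of which was kept, and those with no linked WT peak. All 7 fused-type genes carried a WT peak, while 17 of 21 Lce and 10 of 14 Sprr genes carried none.

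Along the chromosome, peaks came in groups with long empty stretches between them. From S100a1 to S100a10 (chr3:90511034-93564645, 3.05 Mb) lay 116 WT summits, or 38.0 per Mb, against 12.8 per Mb over chromosome 3. The stretch is bounded by members and holds 70 protein-coding genes. Genes per Mb over the chromosome were not counted, so the densities are not on an equal footing. No WT summit fell in a stretch of 270 kb (chr3:92170040-92440414) that holds 10 Sprr2 genes and Sprr1b. None fell in 172 kb (chr3:92653809-92826024) with 11 Lce1 genes, or in 119 kb (chr3:92894208-93012980) with the 6 Lce3 genes. A further 95 kb without a summit (chr3:90629504-90724552) held S100a8 and S100a9, which encode the alarm-signal pair calprotectin, and S100a7a. The longest, 958 kb (chr3:91054085-92012317), held only S100a7l2 among the members.

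Some of the empty stretches consist of recent gene copies, to which reads of 51 bases may not map uniquely. The promoter windows of Sprr2a1, Sprr2a2 and Sprr2a3 shared 100%, 100% and 88.8% of their runs of 51 bases with another promoter window of the table. Those of Lce1g and Lce1h shared 2.4% each. None of these 5 members had a WT peak. Of the other 50 members with a window in the table no run was shared, and 23 of them had a WT peak. The 50 include 7 other Sprr2 genes and the 6 Lce3 genes, which had no WT peak either. Sequence between the windows was not read, and how far mapping accounts for the empty stretches was not tested.

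**Figure D2:**
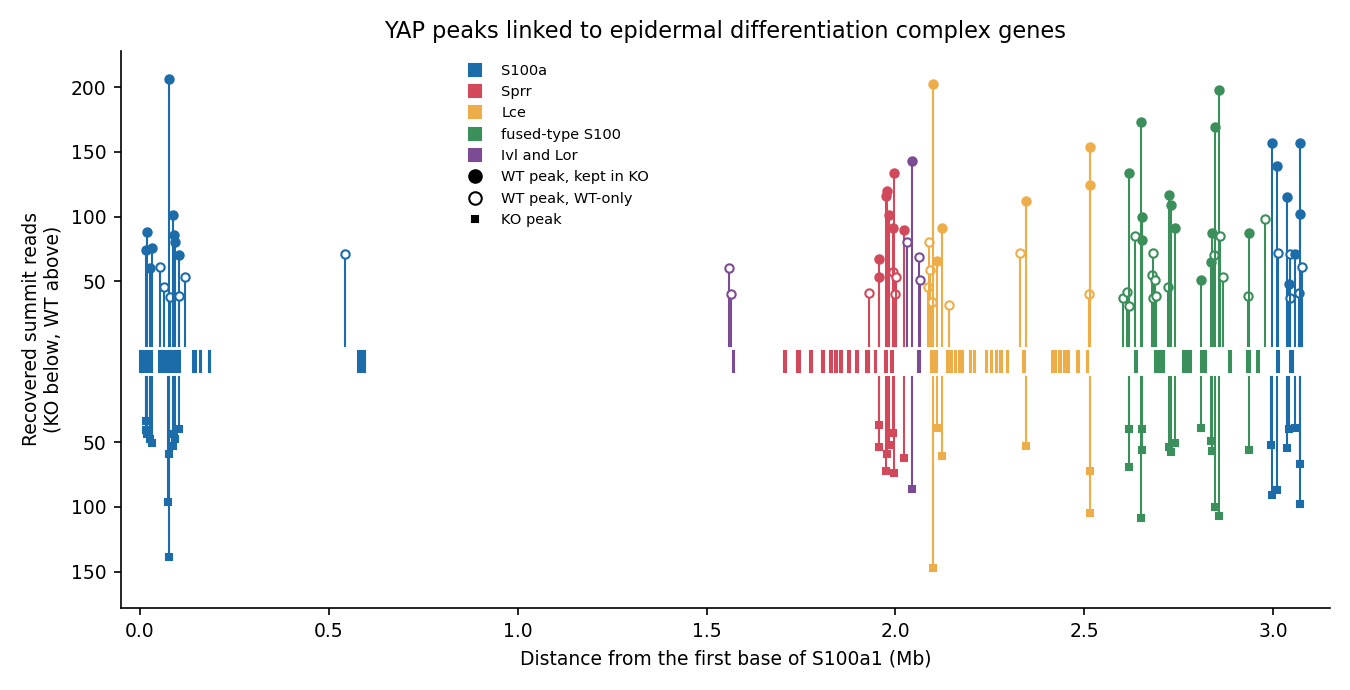
Summit reads of every YAP peak linked to a member, WT upward and KO downward, against the distance in Mb from the first base of S100a1; blocks on the midline are the members and colours are families. WT peaks reach 206 reads in the first S100a group, 202 at Lce6a and 198 near Rptn, and the Sprr2, Lce1 and Lce3 stretches have few or no peaks.

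Most member peaks lay outside gene spans. Of the 86 WT summits, 21 (24.4%) lay inside a gene span, against 53.3% of all WT summits. Member spans are short (median 1851 bp, against 17329 bp over all genes), so these shares are not on an equal footing. No more than 2 kb from a gene's 5′ or 3′ end lay 20 (23.3%, exact 95% interval 14.8 to 33.6), an interval that contains the 27.2% of all WT summits. Within 5 kb lay 46.5%. Summits outside spans had a median distance of 10220 bp and a maximum of 34052 bp, well inside the 100 kb limit. Of the 33 summits 10 kb or more outside a span, 17 were kept.

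At 6 annotated starts, a WT summit lay within 250 bp of the start. The 250 bases before each are printed because YAP peaks cover or adjoin them. The sequences are RefSeq's (GRCm38.p6), 5′ to 3′ on the gene's strand. Capitals mark letters that match a searched motif: GGAATG for TEAD, TGANTCA for AP-1, CACGTG for the E-box bound by BMAL1 with CLOCK, and GCCNNNGGC for AP-2, each on both strands.
S100a3 (chr3:90586702-90586951, plus strand): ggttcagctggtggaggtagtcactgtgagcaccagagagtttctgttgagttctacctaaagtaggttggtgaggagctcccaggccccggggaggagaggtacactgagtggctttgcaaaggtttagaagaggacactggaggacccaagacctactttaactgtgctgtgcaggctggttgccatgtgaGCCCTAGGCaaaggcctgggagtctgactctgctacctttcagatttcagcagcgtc
S100a6 (chr3:90612644-90612893, plus strand): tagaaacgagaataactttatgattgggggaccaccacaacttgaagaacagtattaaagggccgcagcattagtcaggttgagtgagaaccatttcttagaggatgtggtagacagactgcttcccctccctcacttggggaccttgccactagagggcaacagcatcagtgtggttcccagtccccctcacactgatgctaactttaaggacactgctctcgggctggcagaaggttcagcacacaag
Ivl (chr3:92573736-92573985, minus strand): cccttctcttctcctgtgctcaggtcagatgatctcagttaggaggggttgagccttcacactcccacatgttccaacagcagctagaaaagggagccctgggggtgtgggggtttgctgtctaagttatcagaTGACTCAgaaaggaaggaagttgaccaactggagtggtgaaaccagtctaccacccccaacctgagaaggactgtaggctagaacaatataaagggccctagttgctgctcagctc
Lce6a (chr3:92621661-92621910, minus strand): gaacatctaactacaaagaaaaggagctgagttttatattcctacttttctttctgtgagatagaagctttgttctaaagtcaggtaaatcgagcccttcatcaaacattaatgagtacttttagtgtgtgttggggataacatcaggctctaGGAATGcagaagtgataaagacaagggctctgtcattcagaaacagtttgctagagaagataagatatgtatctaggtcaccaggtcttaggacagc
Crnn (chr3:93144539-93144788, plus strand): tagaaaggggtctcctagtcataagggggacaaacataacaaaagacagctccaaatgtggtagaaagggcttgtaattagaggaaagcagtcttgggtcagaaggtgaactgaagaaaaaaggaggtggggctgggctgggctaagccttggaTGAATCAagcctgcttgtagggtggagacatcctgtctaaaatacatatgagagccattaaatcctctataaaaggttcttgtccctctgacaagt
Flg2 (chr3:93197023-93197272, plus strand): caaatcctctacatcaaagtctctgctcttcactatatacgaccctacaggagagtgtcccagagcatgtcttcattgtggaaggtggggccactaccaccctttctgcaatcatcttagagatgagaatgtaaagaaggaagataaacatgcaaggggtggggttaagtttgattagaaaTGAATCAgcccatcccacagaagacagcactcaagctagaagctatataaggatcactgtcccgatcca

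Counted from the start, with -1 the base before it, the AP-1 letters begin at -116 in Ivl, -96 in Crnn and -69 in Flg2. They read TGACTCA in Ivl but TGAATCA in Crnn and Flg2, since the N of the searched pattern takes any base. The pattern is thus looser than TGA(C/G)TCA, the AP-1 consensus. Lce6a has TEAD letters from -97 and S100a3 AP-2 letters from -57. S100a6 has none of the 4 motifs, and no window has the E-box letters. No window holds more than 1 match, so none overlap. The 3 windows with AP-1 letters had WT-only peaks, with 69 reads at Ivl, 51 at Flg2 and 85 at Crnn. At the other 3 the peak was kept. S100a3 had 206 WT and 139 KO reads, S100a6 had 70 and 40, and Lce6a had 66 and 39. These 6 peaks were chosen for their place and are too few to set motif against keeping.

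Letters of this loose AP-1 pattern were frequent before the starts of complex genes, and windows with C or G at N were not counted apart. The table held 59 promoter windows for 55 of the members, and the 250 bases before the start had AP-1 letters in 19 (32.2%), against 6.75% of all 32851 windows. They were in 9 of 14 Sprr windows, 5 of 7 fused-type windows (Crnn, Flg2, Flg, Rptn, Tchhl1), those of both Ivl and Lor, and 3 of 16 S100a windows, but in 0 of 20 Lce windows. TEAD letters were in 10 (16.9%), against 12.6% of all windows, and 5 of these were Lce. E-box letters were in 2 (3.39%, against 6.02%) and AP-2 letters in 4 (6.78%, against 13.7%). Within a family the windows are related copies, so they are not independent. In 11 of 59, a WT peak overlapped at least part of the 300-base window, which runs on to 50 bases past the start. AP-1 letters were in 6 of these 11, and in 13 of the other 48. Of the 6, those of S100a16, Sprr1a and S100a11 had kept peaks, and those of Ivl, Crnn and Flg2 had WT-only peaks. A match says only that the letters occur, and their absence says nothing of the factor.

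**Figure D3:**
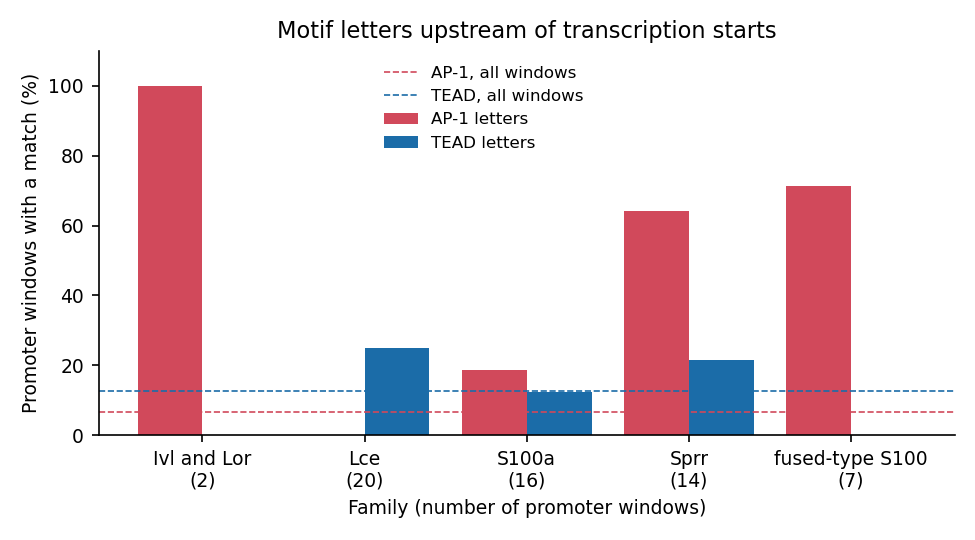
Share of promoter windows (250 bases before each annotated start, in %) with AP-1 or TEAD letters in each family; dashed lines are the shares over all 32851 windows, 6.75% and 12.6%. AP-1 letters (TGANTCA, with any base at N) were in 9 of 14 Sprr and 5 of 7 fused-type windows and in 0 of 20 Lce windows.

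Among the envelope precursors, the Sprr peaks lay between Sprr1b and Ivl. Sprr1a, a small proline-rich gene induced by stress and during differentiation, had 2 WT peaks, both kept. Its peak 608 bp before the start (chr3:92485748-92486800) had 116 WT and 72 KO reads, a log2 KO to WT value above background of -0.77. The peak 3144 bp before the start had 120 and 59 reads (-1.16). By the deposited folds, which divide by each list's local background, that peak was at -0.01, with a local background of 20.18 reads in WT and 9.63 in KO. For other peaks whose deposited folds moved the value beyond its counting interval, the log2 value from folds follows the one from reads. Sprr4, with 7 WT peaks, had its strongest (chr3:92507805-92508690) 7898 bp before the start, with 134 and 74 reads (-0.95, from folds -0.34). Its other kept peaks had 101 and 52, 91 and 43, and 90 and 62 reads, and its 3 WT-only peaks had 40 to 57 reads. The peak with 91 reads was no longer kept when summits had to lie within 200 bp, since its KO summit lay 229 bp away. Sprr3 had 2 kept peaks, of 53 WT and 37 KO reads and of 67 and 54 reads. The latter's log2 value of -0.37 was the highest of the Sprr peaks. Sprr1b had 1 WT-only peak with 41 reads.

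Ivl encodes involucrin, an early envelope precursor. Its strongest peak (chr3:92554254-92554857) lay 16351 bp outside the span, beyond the gene's 3′ end, with 143 WT and 86 KO reads at the same base in both lists. The log2 value was -0.80, and the ratio of reads was 0.601 with an exact 95% interval of 0.455 to 0.791. From folds the log2 value was -0.07, with a local background of 17.3 reads in WT and 10.69 in KO. That was the only kept peak of the 4 at Ivl. One WT-only peak lay 129 bp outside the span on the promoter side (69 reads), another 3435 bp outside on that side (51), and one far beyond the 3′ end had 80 reads. Lor encodes loricrin, the main protein of the mature envelope. Its 2 WT-only peaks lay 10363 and 3546 bp outside the span, with 60 and 40 reads.

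Lce genes encode late envelope proteins, and their peaks were concentrated at 3 of the 21. Lce6a had 7 WT peaks. The strongest (chr3:92609583-92610327), inside its span and 11724 bp after the start, had 202 WT and 147 KO reads, which was the highest KO value of any member and a log2 value of -0.49. The ratio of reads was 0.728, with an interval of 0.584 to 0.904. Kept peaks near the Lce6a start and 11850 bp before it had 66 and 39 (-0.94, from folds -0.33), and 91 and 61 reads. The 4 WT-only peaks had 34 to 80 reads. Lce1m had 154 WT and 105 KO reads at a peak 6602 bp before its start (chr3:93025130-93026121, -0.60, from folds -0.14), and 124 and 72 reads at a neighbouring peak 8000 bp before it (-0.87, from folds -0.24). A weaker peak of 40 reads was WT-only. Lce1l had 112 and 53 reads 4603 bp before its start (-1.24, from folds -0.65) and a WT-only peak of 72 reads. The Lce1b peak, WT-only, had 32 reads.

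At the fused-type genes, most peaks lay far from the spans, and these had more reads at the median. Of their 28 WT peaks, 19 lay 10 kb or more outside a span, with a median of 87 reads and 11 kept. The 9 nearer ones had a median of 51 reads and 2 were kept. Rptn, which encodes repetin, had 198 WT and 107 KO reads at a peak 26247 bp before its start (chr3:93366960-93368002, -0.95), and WT-only peaks of 85 and 53 reads. Crnn, which encodes cornulin of squamous epithelia, had 8 WT peaks, the strongest 10238 bp beyond its span (chr3:93159542-93160533) with 173 and 109 reads (-0.72). Another, of 1910 bp, 16608 bp before the start, had 134 and 69 reads (-1.07, from folds -1.54) and was overlapped by 2 KO peaks. A further 2 Crnn peaks were kept, with 100 and 56 and with 82 and 40 reads, and 4 were WT-only, with 31 to 85 reads.

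Hrnr, the hornerin gene, had 169 and 100 reads at a peak 23843 bp beyond its span (chr3:93356957-93358011, -0.82, from folds -0.39). Its weaker kept peaks had 87 and 57, 65 and 49, and 51 and 39 reads. For the last 2 the log2 value was -0.49, but by the deposited folds they were higher in KO, at 0.14 and 0.11. A WT-only Hrnr peak had 70 reads. Flg, which encodes filaggrin, had 1 peak, 21886 bp before its start (chr3:93251391-93251963), with 91 and 51 reads (-0.98). Flg2, the filaggrin-2 gene, had 8 WT peaks. The 2 kept ones, 14003 and 18929 bp beyond its span, had 117 and 54 and 109 and 58 reads (-1.27 and -1.04, from folds -0.38 and -0.35). The other 6, among them all 5 within 10 kb, were WT-only with 37 to 72 reads. Tchh, the trichohyalin gene of the hair follicle's inner root sheath, had 87 and 56 reads inside its span and a WT-only peak of 39 reads. Tchhl1 had a WT-only peak of 98 reads (chr3:93489181-93489686), the highest WT-only value among the members. Of all WT peaks with 80 to below 100 reads, 80.7% were kept.

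S100a genes lie at both ends of the complex. The member peak with the most WT reads (chr3:90585358-90588544) was in S100a3, 97 bp past one of its 4 annotated starts, with 206 WT and 139 KO reads. Its log2 value was -0.60 and the ratio of reads 0.675, with an interval of 0.54 to 0.841. By the deposited folds the log2 value was -0.01, and with the KO peak of largest overlap as partner it was -1.18. The peak was 3187 bp wide, with 14 wider among all WT peaks, and was overlapped by 3 KO peaks, of 96, 139 and 59 reads. In all, 4 of the members' 44 kept peaks, at S100a14, S100a3, Crnn and S100a11, were overlapped by more than 1 KO peak, against 2.96% of all kept peaks. S100a3 is annotated with a long span that also contains S100a2, so the link to S100a3 rests on that annotation. Other kept S100a3 peaks had 101 WT and 53 KO reads, and 86 and 44 reads. WT-only S100a3 peaks had 61 and 46 reads. S100a2 had a WT-only peak of 38 reads.

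Neighbouring S100a genes had weaker peaks, most of them at the genes. S100a14 had 88 and 44 reads 317 bp outside its span (-1.19) and 74 and 41 reads on its other side (-1.04), the latter in a peak of 2618 bp. S100a16 had 60 and 48, and 76 and 51 reads inside its span. S100a4 had 80 and 48 reads inside its span, 796 bp past the start (-0.87, from folds -0.18). S100a6, which encodes calcyclin, had 70 and 40 reads 182 bp past the start (-0.99) and WT-only peaks of 39 and 53 reads. S100a7l2 had a WT-only peak of 71 reads 34052 bp from its span. No peak was linked to S100a1, S100a13, S100a5, S100a7a, S100a8 or S100a9.

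At the other end, S100a11 and S100a10 shared a dense group of peaks. S100a11 had 157 and 91 reads 13349 bp before its start (chr3:93505988-93507537, -0.86, from folds -0.10), 139 and 87 reads in a 1738 bp peak at its 5′ end (-0.74, from folds -0.12), and a WT-only peak of 72 reads. S100a10, whose product pairs with annexin A2, had 9 WT peaks, 5 of them kept. Its strongest (chr3:93580676-93581350), 16401 bp outside the span, had 157 and 98 reads, a log2 value of -0.74 against 0.14 by the deposited folds. WT local background was 21.6 reads there, the highest of the member peaks, against 11.88 in KO. The other kept peaks had 115 and 55 (-1.22, from folds -0.65), 102 and 67 (-0.69), 71 and 39 (-1.06) and 48 and 40 reads (-0.34). Of the WT-only peaks, 1 lay inside the span with 71 reads, and the other 3 had 37 to 61.

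Over the complex, 44 of 86 WT peaks (51.2%, exact 95% interval 40.1 to 62.1) were kept, against 39.1% of all WT peaks. All WT peaks, weighted to the members' read numbers, would give 44.7 kept peaks, or 51.9%. The members' WT peaks had a median of 71.5 reads, against 61 over all WT peaks, and 14 of them (16.3%, against 10.1%) had at least 120 reads. All 9 with 100 to below 120 reads and all 14 above these were kept, as were 96.8% and 99.8% of all WT peaks in these classes, and so were 0 of the 10 under 40 reads, where 1.27% of all WT peaks were. By family, 8 of 12 Sprr, 16 of 27 S100a, 13 of 28 fused-type, 6 of 13 Lce and 1 of 6 Ivl and Lor peaks were kept. The intervals of these family shares overlap, and no difference between families was tested. The intervals cover counting error only. All 49 KO peaks overlapped a WT peak (99.0% over the whole KO list), so there was no KO-only peak at a member.

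**Figure D4:**
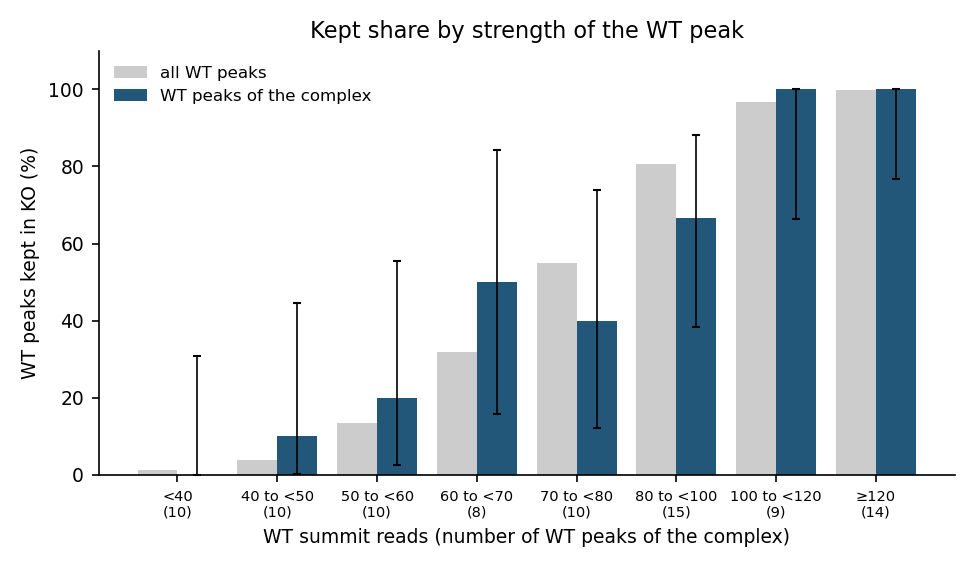
Share of WT peaks kept in KO (%) by WT summit reads, for all 36576 WT peaks (grey) and for the 86 of the complex (blue, with exact 95% intervals; their number in brackets). Every interval of the complex contains the share of all WT peaks in its class.

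At all 44 kept peaks the KO summit had fewer reads than its WT partner, as at 99.5% of all kept peaks. At some of the 44, the counting interval of the ratio of reads included equal reads. These were the S100a16 peak of 60 WT reads (0.536 to 1.19) and the S100a10 peak of 48 (0.534 to 1.29). Both Sprr3 peaks (0.446 to 1.08 and 0.553 to 1.17) were also among them. So were the Hrnr peaks of 51 and 65 WT reads (0.491 to 1.18 and 0.509 to 1.11). The median over the 44 was 100 reads for WT and 55.5 for KO. After subtraction of the even background, log2 KO to WT values had a median of -0.87, a ratio of 0.549, with an interquartile range of -1.06 to -0.68. From the deposited folds the members' median was -0.44, and no such median was taken over all kept peaks. By reads above background, the median over all kept peaks was close to the members', at -0.88. Set against all kept peaks of their own read class, 23 member peaks lay above the median and 21 below, with a median difference of 0.01. Medians by family ran from -0.95 for fused-type genes and -0.87 for S100a to -0.86 for Sprr and -0.77 for Lce. Single values spanned -1.29, at Sprr4, to -0.34, at S100a10, and their SD was 0.262. Values over kept peaks leave out WT peaks whose KO counterpart was not called; the lowest KO peak of a member had 34 reads.

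Sites with more WT reads also had more KO reads. Across the 44 kept peaks, Pearson's r between WT and KO log2 reads above background was 0.907, as a description over sites that share 2 libraries, and 0.868 over all kept peaks. Summits moved little, with a median absolute shift of 30.5 bp (33 bp over all kept peaks) and 33 of 44 within 50 bp. Local background, as recovered from the deposited values, at the kept peaks was 12.8 reads for WT and 10.3 for KO at the median. Subtracting it in place of the even background gave a median log2 of -0.81. The part of other background in the lower KO values was not tested.

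**Figure D5:**
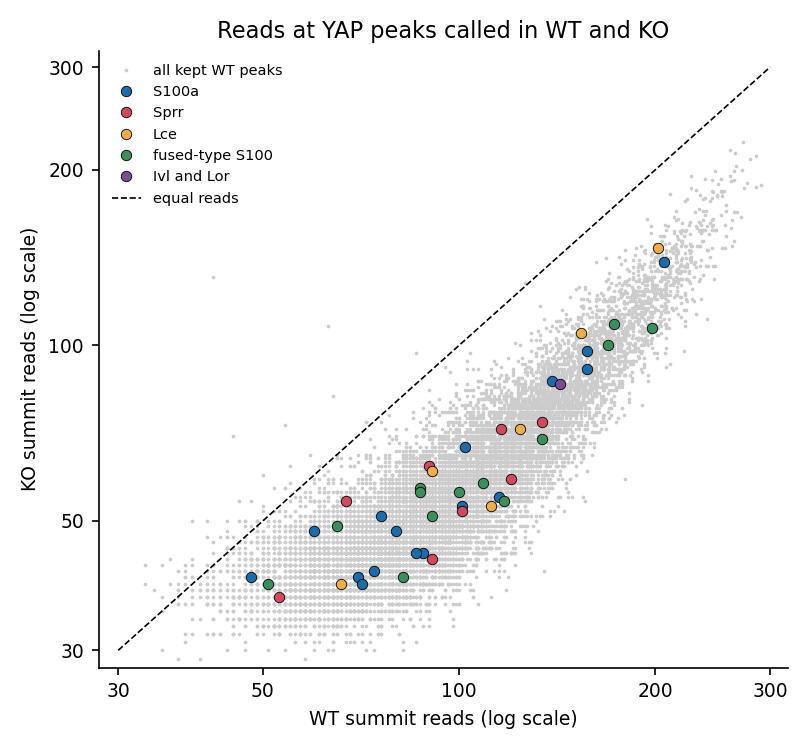
KO against WT summit reads (log scales) at kept peaks, with the 44 of the complex coloured by family and all 14315 kept peaks in grey. Every member peak lies below the dashed line of equal reads, within the grey cloud.

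Genes that assemble, process or control the envelope from elsewhere in the genome, in lists chosen with earlier results known, also carried YAP peaks. Of 17 assembly and processing genes, 15 had a WT peak and the same number a kept one, against 52.5% and 29.7% of all genes. Of their 77 peaks 53 were kept (68.8%, interval 57.3 to 78.9), where the reads of all WT peaks would give 46.2. Ppl, which encodes the envelope scaffold periplakin, had 244 WT and 164 KO reads, Evpl (envoplakin) 156 and 98. Tgm1, the transglutaminase that cross-links the envelope, had 151 and 62, and Casp14, a protease that acts in filaggrin breakdown, 171 and 119. Padi3 and Asprv1, whose products modify and cut filaggrin, had no linked peak. Of the 9 WT peaks at the suprabasal keratins Krt1, Krt10 and Krt2, 3 were kept (33.3%, against 39.7% from their reads). All 9 regulators of differentiation had a kept peak. Among them were Trp63 (235 and 156 reads), a master factor of stratified epithelia, Hopx (232 and 148), Prdm1 (190 and 137), Ovol1 (108 and 62) and Zfp750 (103 and 59). At Satb1, which shapes chromatin of the complex in mouse skin, the strongest of 7 peaks, 87 reads, was WT-only.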

How the data were processed

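The authors deposited 1 peak list per genotype for the YAP ChIP samples, and the 2 input samples were not used here. Per the submitters' processing notes, MACS2 2.1.1, SAMtools 1.5, Trimmomatic 0.36 and build mm10 were named without roles, while aligner, control and filters are not stated. The deposited score is 10 times the −log10 q, truncated. The deposited fold is a ratio of summit signal to the caller's background, and the authors also give −log10 p and −log10 q, which starts just above 2. Summit positions are the deposited start plus the summit distance, another measure in the authors' files.

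From these files, whole summit reads were solved with Python 3.11.15 and SciPy 1.17.1 from fold and −log10 p under Poisson scoring. A read number matched within 0.002 at 100% of peaks, against 0.93% (WT) and 0.397% (KO) with the scaling 3% off. The scaling was 0.6937 and 0.8416. The solver was tested on simulated data. The labels give 25 to 50 M reads of 51 bp per sample, and the depth of each pool is not stated.

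Genes came from RefSeq (GRCm38.p6), as did promoter windows, which also gave strand for 55 members. Kept peaks were paired with the overlapping KO peak of most reads. Every member with a peak was named. Alternatives changed link distance, overlap, list limits, background and pairing. The members and lists were chosen with earlier results of these data known, and so were recovered reads as the measure, 120 reads as a limit, and the motifs.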

Additional observations from a re-analysis of the deposited data

How the results depend on the processing

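Of 22 alternatives of the main results, 18 did not leave the counting interval of the main value or, for counts, 1.5 times either way. With a link distance of 5 kb, 13 members had a KO peak in place of 20, and the KO share over all genes was not counted at that limit. For WT, 21 members had a peak at 5 kb, against 48.1% of all genes. Among the highest-scoring WT peaks, as many as KO has, the members' kept share was 76.0% and that of all 77.8%, since weak peaks are left out. With 50% reciprocal overlap it was 43.0%, and 32.1% over all WT peaks, and 7 kept peaks, at S100a14, S100a16, S100a3, Sprr4, Crnn and S100a11, were lost. The median log2 KO to WT value was -0.44 from the deposited folds, which divide by each list's own local background. In these folds 3 peaks turned, the Hrnr peaks of 51 and 65 reads to 0.11 and 0.14 and the S100a10 peak of 157 reads to 0.14. Within 5 kb of a gene end lay 46.5% of the WT summits, since the limit is wider. Among ratios of single peaks, pooled over all alternatives, 156 stayed within their counting interval, 17 moved and 3 turned. All 3 turns and nearly all of the moves came from the deposited folds. Pairing by largest overlap could change only the 4 kept peaks overlapped by more than 1 KO peak, so the pooled count understates how often folds differed. Subtraction of local background and the removal of members with shared runs were chosen after seeing the data. No paired analysis was possible because 1 pooled list stands for each genotype. No summit below 28 reads in WT or 29 in KO was listed, which limits what can be said of weak sites.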

Other observations

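Genes inside the complex that belong to none of its families also carried YAP peaks, 9 of 11 of them, with 35 WT peaks of which 11 were kept. Over the genome 52.5% of genes had a linked WT peak and 39.1% of WT peaks were kept. The strongest lay in the stretch before the Sprr2 genes. The site 27286 bp from Lelp1 (chr3:92169623-92170673) had 208 WT and 141 KO reads, more than any member peak in WT. It is the last WT summit before the 270 kb with no summit. Pglyrp3, which encodes a peptidoglycan recognition protein, had 201 and 142 reads at a site 1421 bp from its span. Near 2310050C09Rik, a site of 126 and 67 reads (chr3:92893914-92895575) lay 24003 bp away, next to the Lce3 genes. Kprp and Crct1 had WT-only peaks of up to 49 and 67 reads.

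The keratin clusters, other tandem families of epithelial genes, also carried YAP peaks. WT peaks were found for 20 of 27 type I keratins on chromosome 11 and 17 of 26 type II keratins on chromosome 15, which is 74.1% and 65.4%, against 52.5% of all genes. Their kept shares were 42.4% of 66 peaks, against 44.4% from their reads, and 54.7% of 64 peaks, against 55.1%. Median log2 KO to WT values at kept peaks were -0.81 and -0.84.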
